A study of Mus musculus with 24 samples.

Results

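Icos, Cd28, Ctla4, Pdcd1, Lag3, Tigit, Cd5, Cd6, Izumo1r and Btla encode receptors on the surface of T cells that raise or restrain the response to antigen. These 10 genes were chosen by name, as the rows of the count matrix that carry the symbols, and all 10 were found among its 24447 genes. They were measured by single-cell RNA sequencing in 1735 liver cells sorted as NK1.1+CD3e+, the gate for NKT cells, from mice 8 to 10 weeks old. The mice were WT, Jα18-deficient, which lack type I NKT cells, or CD1d-deficient, which lack the type I and also the type II cells, and no group was treated. The WT mice were C57BL/6, and the methods of the study named no strain for the deficient mice. The gate itself does not separate NKT cells from other NK1.1+ T cells, and the sex and the number of mice per group were not given in the sources used here. The labels listed 24 libraries, 8 for each genotype, but the cell names in the matrix carried the genotype alone. The cells of a genotype therefore formed 1 pool, of 623 WT, 725 Jα18-deficient and 387 CD1d-deficient cells, and genotypes were compared by size with counting intervals and without a test.

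T cells need a signal from costimulatory receptors beside that of the T cell receptor. CD28 and ICOS give such signals on binding B7 family ligands, and CTLA-4 binds the ligands of CD28 with higher affinity and restrains it. PD-1 (Pdcd1), LAG-3, TIGIT and BTLA are inhibitory receptors of activated T cells, with PD-L1, MHC class II, CD155 and HVEM among their ligands. CD5 and CD6 are related scavenger receptor proteins that sit with the T cell receptor and set its signalling, and Izumo1r, also called folate receptor 4 or Juno, is a membrane-anchored protein known on regulatory and antigen-experienced T cells. NKT cells recognise lipids on CD1d and respond faster than conventional T cells, and their numbers and activation are known to depend on costimulation.

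Several of the genes are neighbours. In the mouse assembly NCBIM37, the build of the deposited counts, Cd28 lies at chr1:60773644-60830203, Ctla4 at chr1:60943844-60972676 and Icos at chr1:61034771-61057164, all on the plus strand, and the gap is 114 kb between Cd28 and Ctla4 and 62.1 kb between Ctla4 and Icos. Cd5 (chr19:10792633-10813464, minus strand) and Cd6 (chr19:10863831-10904548, minus strand) are 50.4 kb apart. Lag3 (chr6:124854379-124861723, minus strand) lies 16.1 kb from Cd4, the gene used here to class the cells. Pdcd1 lies at chr1:95934884-95949130, Izumo1r (under its older symbol Folr4) at chr9:14690258-14708395 and Tigit at chr16:43648974-43664297, all on the minus strand, and Btla at chr16:45224428-45253008 on the plus strand.

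The promoters of the members with at least 500 UMIs that were lowest in the CD1d-deficient pool are shown because the genotype result turns on them. RefSeq promoter entries (assembly GRCm38.p6) were matched for 6 of the 10 members, without Icos, Cd28, Lag3 and Cd6. The 250 bases upstream of the annotated start are printed 5′ to 3′ on the gene's strand for Cd5 (chr19:10738975-10739224, minus strand), Izumo1r (chr9:14903768-14904017, minus strand) and Btla (chr16:45224087-45224336, plus strand), with matches to the searched motifs in capitals.
Cd5: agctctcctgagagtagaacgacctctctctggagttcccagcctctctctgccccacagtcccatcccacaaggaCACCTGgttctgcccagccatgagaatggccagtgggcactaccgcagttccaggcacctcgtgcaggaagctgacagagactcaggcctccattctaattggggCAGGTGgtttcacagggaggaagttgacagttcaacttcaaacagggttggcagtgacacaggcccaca
Izumo1r: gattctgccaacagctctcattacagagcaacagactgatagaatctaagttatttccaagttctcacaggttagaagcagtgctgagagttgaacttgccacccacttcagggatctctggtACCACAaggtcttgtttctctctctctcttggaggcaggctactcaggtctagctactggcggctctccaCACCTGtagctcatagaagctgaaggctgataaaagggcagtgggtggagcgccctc
Btla: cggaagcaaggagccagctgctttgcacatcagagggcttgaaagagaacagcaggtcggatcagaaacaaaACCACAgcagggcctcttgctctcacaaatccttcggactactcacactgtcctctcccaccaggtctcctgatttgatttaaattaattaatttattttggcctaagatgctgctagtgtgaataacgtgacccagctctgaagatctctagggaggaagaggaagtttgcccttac
In Cd5 the capitals mark the E protein motif, CAGGTG, which was found there once on each strand, and a match on the other strand is printed as its reverse complement. Izumo1r held 1 match to this motif and 1 to the RUNX motif, which also had 1 match in Btla. The RUNX motif was searched for as TGTGGT, and both of its matches shown here lie on the other strand. Among 32536 promoters of the same length, 17.3% held the E protein motif on either strand and 14.0% the RUNX motif. Each was found in 3 of the 6 members (the E protein motif in Ctla4, Cd5 and Izumo1r, the RUNX motif in Tigit, Izumo1r and Btla), which describes the letters and not a binding site. The GATA motif AGATAA was found in Tigit and in 9.97% of all promoters. None of the 6 promoters held the ETS motif CAGGAAGT, which 2.70% of all promoters held, or the AP-1 motif TGANTCA, held by 6.73%. The TCF/LEF motif CTTTGAA, held by 4.47% of all promoters, and the T-box motif AGGTGTGA, held by 1.12%, were also in none of the 6. The absence of a motif from these windows tells nothing of the factor.

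The pools differed in depth and in the cells they held. The total was 34102694 UMIs (unique molecular identifiers, each 1 counted transcript molecule) in WT, 60484252 in Jα18-deficient and 14536585 in CD1d-deficient cells, and the median cell held 40467, 46670 and 13508 UMIs. Shares of cells are therefore given after each cell was thinned at random to 10000 UMIs, which left 523, 632 and 227 cells. All 5 markers of the sorted cells were present, with a summed level of 4182 to 4519 CPM (UMIs of a gene per 1000000 UMIs) in each pool. Cd1d1 had 854 UMIs in WT, 934 in Jα18-deficient and 0 in CD1d-deficient cells, which allows up to 0.206 CPM. The 7 myeloid marker genes summed to 88.3 CPM in WT, 22.6 in Jα18-deficient and 615 in CD1d-deficient cells, mostly Lyz2, and 22.0%, 12.8% and 55.0% of the cells carried at least 5 of their UMIs. The B cell, hepatocyte and endothelial lists summed to 1.65 to 15.5 CPM in each pool. A regulatory T cell list of 5 genes summed to 61.9, 68.2 and 32.1 CPM in WT, Jα18-deficient and CD1d-deficient cells. Most of this was Il2ra, with UMIs in 297 cells, and Ikzf2, with UMIs in 307. Foxp3, of the same list, had UMIs in 1 cell of the Jα18-deficient pool alone.

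The members fell into a widely detected and a rarely detected group. Cd28 had UMIs in 966 of the 1735 cells, Cd6 in 852, Icos in 805, Cd5 in 616 and Izumo1r in 587. Btla was seen in 235 cells, Lag3 in 168, Pdcd1 in 73, Tigit in 59 and Ctla4 in 30. The receptors usually classed as inhibitory were thus the 5 in the fewest cells. A few cells held most of what there was of the rarest: the 10 highest cells carried 89.1% of all Ctla4 UMIs and 70.1% of the Pdcd1 UMIs, against 13.3% for Cd28. Tigit was the lowest in counts, with 95 UMIs in all and a single UMI in 40 of its 59 cells, so that its values below rest on few molecules.

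**Figure D1:**
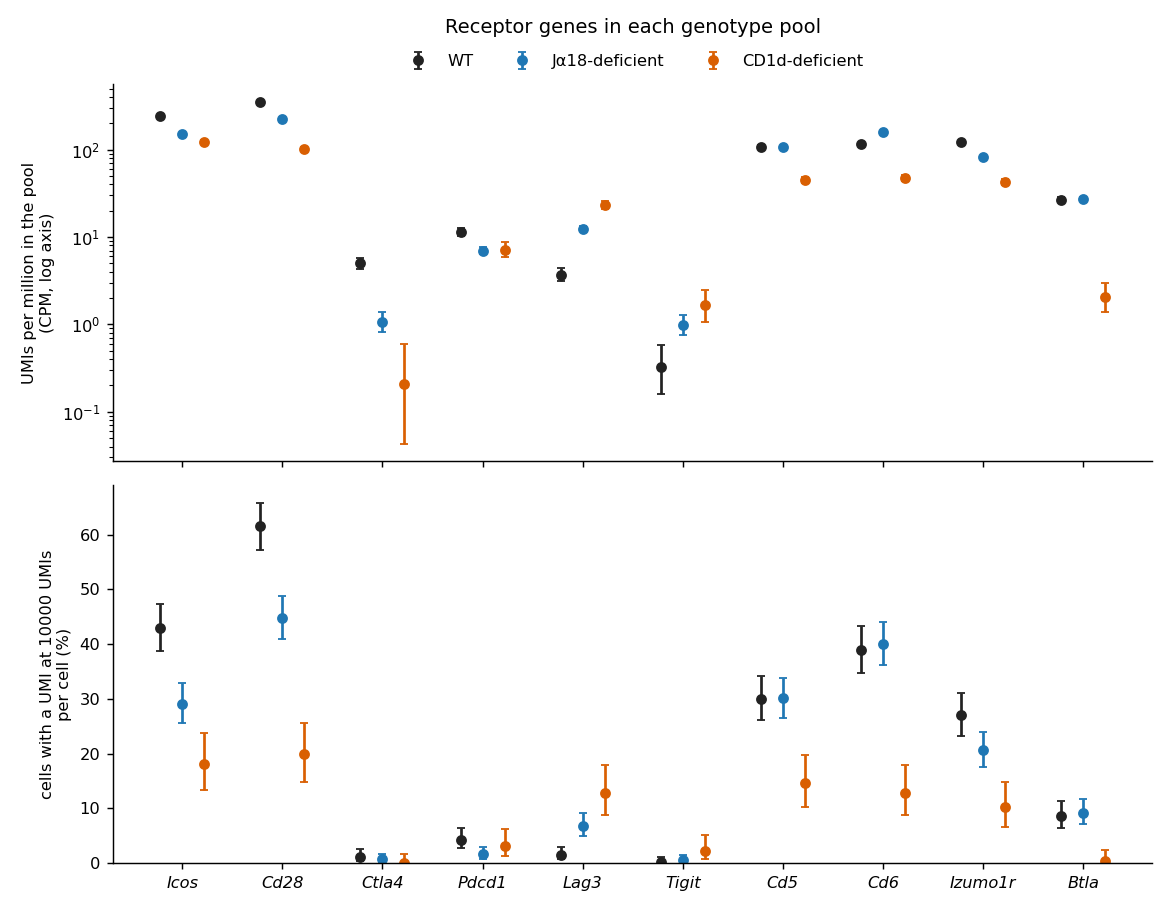
The 10 members in the 3 genotype pools. The upper plot gives the summed level in CPM on a log axis with the Poisson 95% interval, and the lower plot the percentage of cells with a UMI at 10000 UMIs per cell with the Clopper-Pearson 95% interval. Cd28 stood at 355, 225 and 102 CPM in WT, Jα18-deficient and CD1d-deficient cells, while Lag3 ran the other way, from 3.72 to 12.5 and 23.1 CPM.

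The costimulatory receptor gene Cd28 was lowest in the cells of CD1d-deficient mice. Cd28 had 355 CPM in WT, 225 CPM in Jα18-deficient and 102 CPM in CD1d-deficient cells, and at 10000 UMIs it was detected in 61.6%, 44.8% and 19.8% of the cells. The CD1d-deficient level was lower than WT by a log2 ratio of -1.80 (Poisson 95% interval -1.88 to -1.73). The 3 pools were in the same order by level and by share of cells, with no overlap of the intervals. A pool's level mixes how many cells carried a transcript with how much each carried, and the Poisson and Clopper-Pearson intervals cover counting error only, not the spread between mice.

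Icos had the same order of pools, but neither its size nor the place of the CD1d-deficient pool was settled. It had 240 CPM in WT, 150 CPM in Jα18-deficient and 122 CPM in CD1d-deficient cells, and was detected in 43.0% (38.7 to 47.4), 29.1% (25.6 to 32.8) and 18.1% (13.3 to 23.7) of cells at 10000 UMIs. Its log2 ratio of CD1d-deficient to WT was -0.98 (-1.06 to -0.91), but 46.3% of the Icos UMIs of the CD1d-deficient pool lay in 1 cell. Without the highest cell of each pool the ratio was -1.82, and without the cells with at least 5 myeloid UMIs it was -0.04. In that last setting Icos was higher in the CD1d-deficient than in the Jα18-deficient pool, by a log2 ratio of 0.69 where it had been -0.30. Both settings were chosen after the data had been seen, and the part of myeloid RNA in the result was not tested.

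Cd5, Cd6 and Izumo1r were lower in CD1d-deficient cells than in both other pools, which differed from each other by 1.01-fold, 1.36-fold and 1.48-fold. Cd5 stood at 108, 107 and 45.1 CPM in WT, Jα18-deficient and CD1d-deficient cells, and in 30.0%, 30.1% and 14.5% of cells. Cd6 stood at 116, 158 and 47.4 CPM, and in 39.0%, 40.0% and 12.8% of cells. Izumo1r stood at 123, 83.2 and 42.5 CPM, and in 27.0%, 20.6% and 10.1% of cells. The log2 ratios of CD1d-deficient to WT were -1.26 for Cd5 (-1.39 to -1.14), -1.30 for Cd6 (-1.42 to -1.18) and -1.53 for Izumo1r (-1.66 to -1.41). All 3 stayed at or below -1.01 with other scalings and filters, with the highest cells left out and with the cells rich in myeloid UMIs left out, where they were -1.27, -1.09 and -1.53 and that of Cd28 was -2.10.

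Of the 9 members with at least 100 UMIs in each pair of pools with WT, Lag3 alone was higher in both other pools with intervals above 0. It had 127 UMIs (3.72 CPM) in WT, 757 UMIs (12.5 CPM) in Jα18-deficient and 336 UMIs (23.1 CPM) in CD1d-deficient cells, and was detected in 1.53% (0.663 to 2.99), 6.80% (4.97 to 9.06) and 12.8% (8.73 to 17.8) of cells at 10000 UMIs. Its log2 ratio to WT was 1.75 in Jα18-deficient and 2.63 in CD1d-deficient cells (2.34 to 2.94). A single cell held 52.8% of the WT UMIs, and without the highest cell of each pool the ratios were 2.34 and 3.47. The CD1d-deficient ratio was 0.56 without the cells that carried at least 5 myeloid UMIs, while the Jα18-deficient ratio was then 1.02. Lag3 and the summed myeloid level were both highest in the CD1d-deficient pool, and the part of that RNA in the Lag3 level was not tested.

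Btla and the remaining inhibitory receptors gave values with wider limits. Btla had 26.6 CPM in WT and 27.2 CPM in Jα18-deficient cells and 2.06 CPM in CD1d-deficient cells, where it had 30 UMIs. Its CD1d-deficient to WT log2 ratio was -3.69 (-4.27 to -3.17), and -0.67 when each cell counted equally and -1.04 without the cells rich in myeloid UMIs. Ctla4 had 170 UMIs in WT, 65 in Jα18-deficient and 3 in CD1d-deficient cells, with 53.8% of the Jα18-deficient UMIs in 1 cell. The ratio of Ctla4 in CD1d-deficient to WT cells was -4.59 on the log2 scale, with a counting interval from -6.89 to -3.02. Pdcd1 stood at 11.4, 6.96 and 7.15 CPM, with 33.9%, 30.9% and 32.7% of its UMIs in the highest cell of each pool. Tigit had 11, 60 and 24 UMIs, too few for the size rule, which asks for 100 UMIs in a pair of pools. Its log2 ratio to WT was 1.62 (0.68 to 2.70) in Jα18-deficient and 2.36 (1.27 to 3.53) in CD1d-deficient cells, the same direction as Lag3.

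By that rule, a log2 ratio of at least 1 or at most -1, 6 of the 9 members with enough UMIs were lower and 1 was higher in the CD1d-deficient pool than in the WT pool. Over all 9447 genes with enough UMIs, 12.3% were lower and 12.2% higher. The members' median log2 ratio was -1.30, beside 0.01 over all genes. The members were chosen with earlier results of these data known. From the same cells the study had reported Icos, Cd28 and Cd5 as enriched in its CD1d-dependent subset. The contrast with all genes is therefore a description and no independent test. For Jα18-deficient against WT cells, 1 of 9 members was higher (Lag3) and 1 lower (Ctla4), beside 14% and 7.14% of 10267 genes, with a median of -0.57 for the members and 0.13 for all genes. The members' median in this comparison changed sign with the weighting of cells, to 0.26 on sums over thinned cells and 0.09 on the mean over cells, so that it has no settled direction. Both comparisons share the WT pool.

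Cells were next classed by the coreceptor transcripts they held. With 1 UMI as the limit, Cd8a-positive cells numbered 63 in WT, 253 in Jα18-deficient and 231 in CD1d-deficient cells, Cd4-positive cells 188, 104 and 8, and double-negative cells 338, 297 and 145. The 34, 71 and 3 cells with both transcripts were left out of the fits. UMIs were summed over the cells of each class and pool, and the 9 sums were fitted with edgeR with the pool as a term. The 3 pools of different genotype stood in for replicates, so that p-values measure how steady a class difference was across genotypes. A call asked for an adjusted p under 0.05 and an ln fold change beyond 0.25.

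None of the 10 members was called in any of the 3 class comparisons at 1 UMI. The share of all genes called was 0% for Cd8a-positive against double-negative cells, 0% for Cd4-positive against double-negative cells and 0.0969% of 10322 genes for Cd8a-positive against Cd4-positive cells. At an unadjusted p under 0.05 the counts of genes were 270, 367 and 560, and DESeq2 called 2, 7 and 74. In the last contrast edgeR's calls were 10 genes higher and 0 lower in Cd8a-positive cells, and DESeq2's 50 higher and 24 lower. The background was thus at or near 0 and the members cannot be told from it by their calls.

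Izumo1r came closest to a call. It had 166, 173 and 499 CPM in the Cd4-positive cells of the WT, Jα18-deficient and CD1d-deficient pools, 114, 133 and 54.2 CPM in the double-negative cells and 62.9, 41.6 and 35.0 CPM in the Cd8a-positive cells. The Cd8a-positive cells were lowest in each pool and the Cd4-positive cells highest. The CD1d-deficient Cd4-positive value rests on 53 UMIs in 8 cells, with 71.7% of them in 1 cell. The log2 fold change of Cd8a-positive against Cd4-positive cells was -2.46 (SE 0.51, n = 3 pools, adjusted p = 0.0831 from edgeR's quasi-likelihood fit, adjusted after Benjamini and Hochberg). It was called by DESeq2 (adjusted p = 0.00159), and by edgeR with every gene that had a UMI (adjusted p = 0.000839), with cells of a single coreceptor UMI left out (adjusted p = 0.00757) and without the WT pool (adjusted p = 0.0225), and over all alternatives the adjusted p ran from 0.000839 to 0.234. With classes read after thinning edgeR also called it (adjusted p = 0.0150). It was not called without the CD1d-deficient pool, where the fold change was -1.77, or with limma, where it was -2.03. Nor did edgeR call it inside the study's depth filter (log2 fold change -1.64, adjusted p = 0.197) or without the Jα18-deficient pool (adjusted p = 0.0608). The same held with library totals only (adjusted p = 0.0735) and without the pool term (adjusted p = 0.0998).

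The other members had no call and larger error relative to their size. Cd28 had 260, 158 and 86.5 CPM in the Cd8a-positive cells of the WT, Jα18-deficient and CD1d-deficient pools, 355, 248 and 452 CPM in the Cd4-positive cells and 362, 271 and 145 CPM in the double-negative cells, a log2 fold change of -1.13 (SE 0.36) for Cd8a-positive against Cd4-positive cells. Cd6 was at -1.36 (SE 0.46) and Lag3 at 2.5 (SE 1.06) in the same contrast. Icos had 102, 126 and 120 CPM in Cd8a-positive, 250, 154 and 217 CPM in Cd4-positive and 284, 238 and 125 CPM in double-negative cells. Cd8a-positive cells were lowest in the WT and Jα18-deficient pools. In the CD1d-deficient pool the log2 ratio of Cd8a-positive to double-negative cells was -0.06 (-0.23 to 0.11), so that these classes had no clear order. There 1 cell held 818 of the 1367 Icos UMIs of the Cd8a-positive class. The members' median log2 fold change of Cd8a-positive against Cd4-positive cells was -0.83, beside 0.16 over all genes.

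A single Cd8a UMI was weak evidence of the class. Of 655 cells with Cd8a, 254 had 1 UMI of it, and of 408 cells with Cd4, 144 had 1. Cd8b1, the partner chain of CD8α in conventional CD8 T cells, was detected in 3.89% of the cells without Cd8a and in 7.09% of those with 1 UMI. It was detected in 11.4% of those with 2 to 4 UMIs and in 11.1% of those with at least 5. By the share of cells with this gene a limit of 5 UMIs was no better than 2, and these shares were read without thinning. By its level the limits did differ. Over all pools, Cd8b1 stood at 35.1, 44.3 and 72.6 CPM in Cd8a-positive cells at limits of 1, 2 and 5 UMIs. In WT cells alone it had 106 CPM at 2 UMIs and 113 CPM at 5 UMIs. The classes also differed in depth, with a median of 44793 UMIs in Cd8a-positive, 54654.5 in Cd4-positive and 25348 in double-negative cells. The fits were therefore repeated with a limit of 5 UMIs, chosen after the data had been seen, which gave 28, 100 and 121 Cd8a-positive cells and 121, 54 and 1 Cd4-positive cells in the WT, Jα18-deficient and CD1d-deficient pools. Cells under the limit counted as double-negative, and the single CD1d-deficient Cd4-positive cell was left out, so that the Cd4-positive class had 2 pools.

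**Figure D2:**
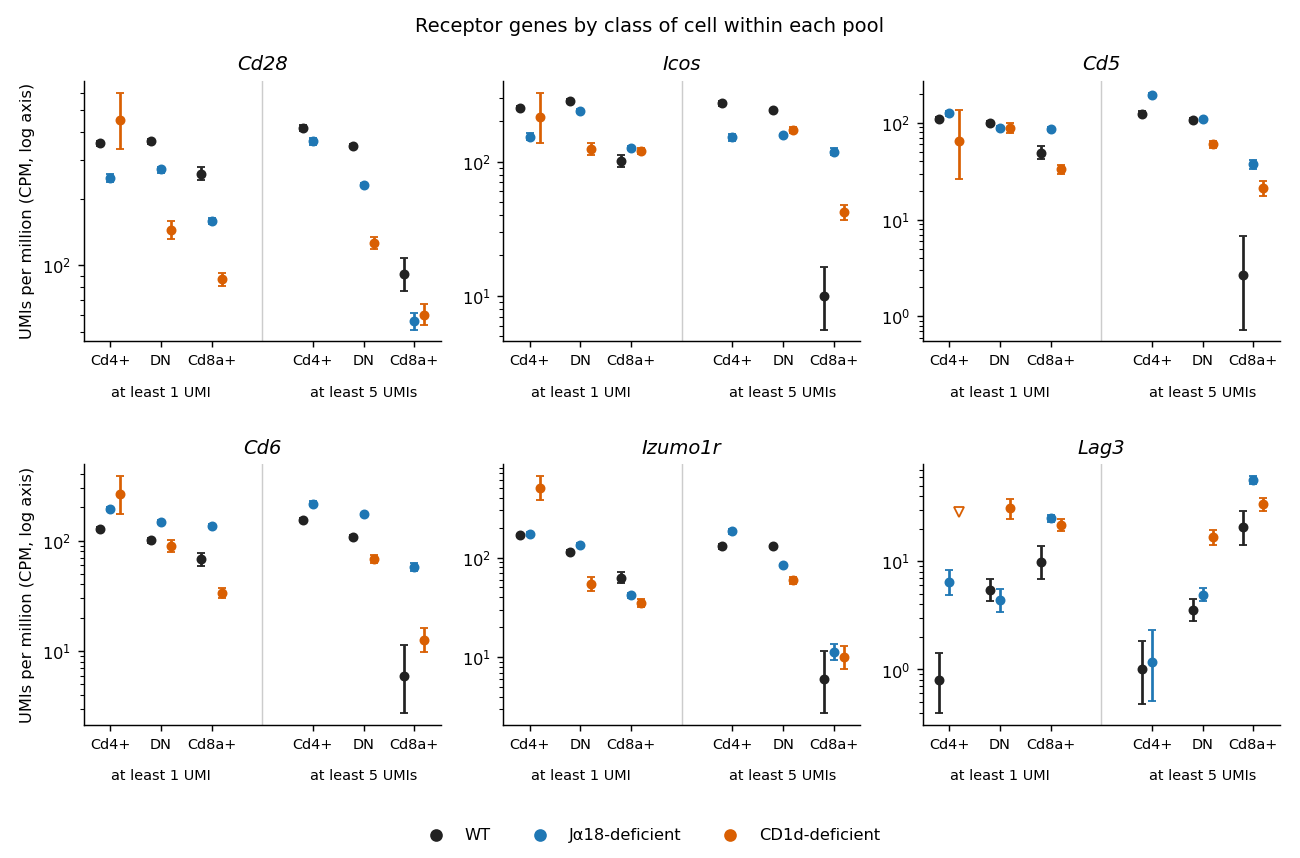
Levels of 6 members in the Cd4-positive, double-negative and Cd8a-positive cells of each pool, in CPM on a log axis, with at least 1 UMI or at least 5 UMIs of the coreceptor defining the class. Each point is a pool, an open triangle a sum of 0 UMIs drawn at its upper limit of 3 UMIs, and the single CD1d-deficient Cd4-positive cell at 5 UMIs is not drawn. At 5 UMIs the Cd8a-positive points of Cd28, Cd5, Cd6 and Izumo1r lay below the other classes in every pool, and those of Lag3 above.

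With at least 5 UMIs, Cd28, Cd6 and Izumo1r were lower in Cd8a-positive than in Cd4-positive cells. Izumo1r had 6.00, 11.3 and 10 CPM in the Cd8a-positive cells of the WT, Jα18-deficient and CD1d-deficient pools, against 129 and 183 CPM in the Cd4-positive cells of WT and Jα18-deficient mice, where 55.1% of the Jα18-deficient UMIs lay in 1 cell. Its log2 fold change was -3.98 (SE 0.54, adjusted p = 0.00157, edgeR). Cd28 had 91.4, 56.0 and 60.0 CPM against 418 and 362 CPM, a log2 fold change of -2.33 (SE 0.34, adjusted p = 0.00246). Cd6 had 6.00, 57.6 and 12.7 CPM against 153 and 216 CPM, a log2 fold change of -2.96 (SE 0.53, adjusted p = 0.0136). The groups did not overlap for any of the 3. At a limit of 2 UMIs, with cells of 1 UMI left out, edgeR did not call Cd28 (adjusted p = 0.0630) or Cd6 (adjusted p = 0.255). Over all 10610 genes 0.641% were called in this contrast, and the members' median was -2.16 beside -0.04 for all genes.

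Against double-negative cells, Izumo1r alone passed. It had 129, 84.1 and 59.0 CPM in the double-negative cells of the WT, Jα18-deficient and CD1d-deficient pools, and the log2 fold change of the Cd8a-positive cells was -3.16 (SE 0.47, adjusted p = 0.0153), in a contrast where 0.066% of genes were called. Cd28 was at -1.58 (adjusted p = 0.0585) and Cd6 at -2.38 (adjusted p = 0.0638), both short of the threshold. Between Cd4-positive and double-negative cells no member was called, beside 0.066% of all genes. The differences at 5 UMIs were found on the same cells on which the limit was chosen and are no independent test of those at 1 UMI.

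The remaining widely detected members did not pass at 5 UMIs. Cd5 had 2.67, 37.5 and 21.1 CPM in Cd8a-positive cells of the WT, Jα18-deficient and CD1d-deficient pools and 125 and 195 CPM in Cd4-positive cells of the first 2, a log2 fold change of -3.06 with an adjusted p of 0.0505 in edgeR. Icos had 10, 118 and 41.8 CPM against 272 and 152 CPM, at -2.00 with an adjusted p of 0.304. A single cell held 42.9% of the Icos UMIs of the Jα18-deficient Cd8a-positive cells and 51.7% of those of the CD1d-deficient ones, so that the level in these sums is largely that of 1 cell each.

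Lag3 had the opposite order to the costimulatory receptors. It stood at 20.7, 55.9 and 33.6 CPM in the Cd8a-positive cells of the WT, Jα18-deficient and CD1d-deficient pools, at 1.0 and 1.18 CPM in the Cd4-positive cells of WT and Jα18-deficient mice, and at 3.56, 4.91 and 16.7 CPM in the double-negative cells. The Cd8a-positive value was the highest in each pool. The log2 fold change was 4.64 (SE 1.1) against Cd4-positive cells, with an adjusted p of 0.109 in edgeR, and 2.49 against double-negative cells, with an adjusted p of 0.692, so that neither was called. At 1 UMI the order was not the same in each pool: Lag3 stood at 9.83 and 24.9 CPM in Cd8a-positive and 5.47 and 4.39 CPM in double-negative cells of the WT and Jα18-deficient pools, but at 21.4 and 30.8 CPM in those of the CD1d-deficient pool. With classes read at 5 UMIs, Lag3 was detected at 10000 UMIs in 8%, 18.3% and 17.3% of the Cd8a-positive cells. In the double-negative cells of that limit the shares were 1.33%, 5.37% and 10.3%. The WT share of 8% rests on 25 Cd8a-positive cells.

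Btla had 0 UMIs in WT, 3.87 CPM in Jα18-deficient and 0.893 CPM in CD1d-deficient Cd8a-positive cells at 5 UMIs, against 28.7 and 32.4 CPM in Cd4-positive cells of WT and Jα18-deficient mice. The Cd8a-positive values were the lower ones, with an adjusted p of 0.309 in edgeR. At 1 UMI Btla was not lower in the Cd8a-positive cells of WT and Jα18-deficient mice. The log2 ratios to their Cd4-positive cells were 0.77 (0.45 to 1.07) and 0.08 (-0.13 to 0.29). Against double-negative cells of these mice, the Cd8a-positive cells had 35.4 and 29.6 CPM to 27.1 and 16.7 CPM. In the CD1d-deficient pool the Cd8a-positive cells were lower at 1 UMI, with 0.61 CPM (7 UMIs) to 7.69 CPM (23 UMIs) in double-negative cells. Ctla4 had 1 UMI in all the Cd8a-positive cells together at either limit. Pdcd1 stood at 15.3, 1.47 and 14.6 CPM in Cd8a-positive cells and 8.19, 9.30 and 2.14 CPM in double-negative cells, and these groups overlapped.

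**Figure D3:**
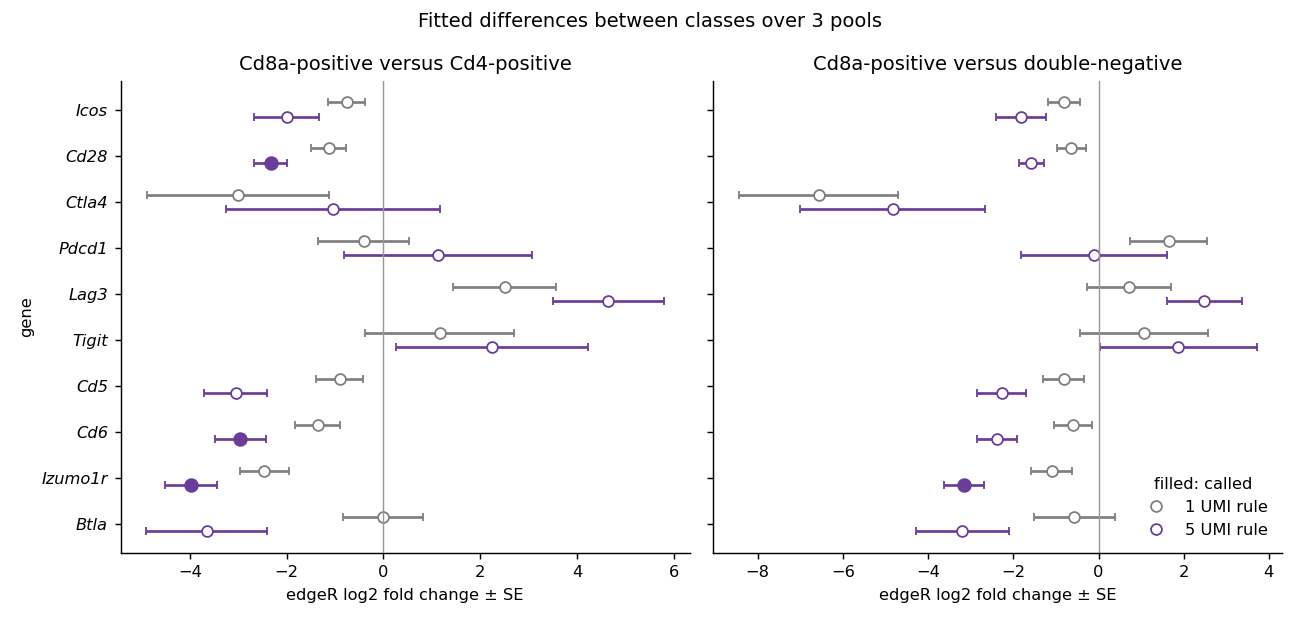
edgeR log2 fold changes of the 10 members with their SE, for Cd8a-positive against Cd4-positive and against double-negative cells, with classes read at 1 UMI or at 5 UMIs. Filled points passed the threshold. None was filled at 1 UMI, and Cd28, Cd6 and Izumo1r were filled against Cd4-positive cells at 5 UMIs, Izumo1r also against double-negative cells.

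The called genes were also compared by the share of cells that held them. At 10000 UMIs and the limit of 5 UMIs, Cd28 was detected in 16.0%, 16.1% and 13.6% of the Cd8a-positive cells of the WT, Jα18-deficient and CD1d-deficient pools, in 72.5% and 70.4% of the Cd4-positive cells of WT and Jα18-deficient mice and in 61.2%, 47.3% and 22.8% of the double-negative cells. Cd6 was detected in 4%, 19.4% and 3.70% of the Cd8a-positive, 46.7% and 53.7% of the Cd4-positive and 39.1%, 42.4% and 17.2% of the double-negative cells. Izumo1r was detected in 4%, 12.9% and 2.47% of the Cd8a-positive, 31.7% and 29.6% of the Cd4-positive and 27.1%, 21.1% and 13.8% of the double-negative cells. For each of the 3 the Cd8a-positive cells had the lowest share in each pool. Among Cd8a-positive cells the share with Cd28 lay in a narrow range over the genotypes, although the WT value rests on 25 cells, and among double-negative cells it ran from highest in WT to lowest in CD1d-deficient mice.

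Within the double-negative class the genotype difference depended on the limit for some members. At the limit of 1 UMI, the log2 ratio of CD1d-deficient to WT double-negative cells was -1.32 for Cd28, -1.18 for Icos, -1.07 for Izumo1r and 2.49 for Lag3. Cd5 was at -0.18 (-0.38 to 0.01) and Cd6 at -0.17 (-0.36 to 0.02), and both of these intervals include 0. At the limit of 5 UMIs the ratios were -1.46 for Cd28, -0.49 for Icos, -1.13 for Izumo1r, 2.23 for Lag3, -0.84 for Cd5 and -0.68 for Cd6. In Cd8a-positive cells Cd28 was lower and Lag3 higher in the CD1d-deficient than in the WT pool at both limits, with ratios of -1.59 and 1.12 at 1 UMI and -0.61 and 0.70 at 5 UMIs. In these cells at 5 UMIs, Cd5 and Icos went the opposite way from the whole pools, at 2.98 and 2.06. The WT cells there held 4 UMIs of Cd5 and 15 of Icos. At 1 UMI Icos was at 0.24. A single CD1d-deficient cell held 818 Icos UMIs. It counted as Cd8a-positive at 1 UMI, among 1367 Icos UMIs of that class. At 5 UMIs it counted as double-negative, among 1521. The Icos ratios of both classes thus carry this cell at 1 limit each, and ratios without it were not computed. The CD1d-deficient pool held a larger share of Cd8a-positive cells (59.7% at 1 UMI, against 34.9% in Jα18-deficient and 10.1% in WT cells). The part of this class makeup in the levels of the whole pools was not tested.

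Other genes of the pathway were read in the same fits. At 1 UMI none was called among 10 other costimulatory receptors, 9 tested inhibitory receptors, 7 tested ligands, 20 signalling genes and 15 transcription factors, in any of the 3 comparisons. In Cd8a-positive against Cd4-positive cells the lists had median log2 fold changes of -0.40, 0.77, 0.78, 0.10 and 0.23, beside 0.16 for all genes. At 5 UMIs 1 of the 10 costimulatory receptors fell in this contrast, Cd40lg, the CD40 ligand, with 37.3, 40.6 and 29.6 CPM in the Cd8a-positive cells of the WT, Jα18-deficient and CD1d-deficient pools and 223 CPM in the Cd4-positive cells of both WT and Jα18-deficient mice (adjusted p = 0.0175, edgeR). Of the 9 inhibitory receptors, 2 rose. Cd244, the NK cell receptor 2B4, had 167, 152 and 170 CPM in Cd8a-positive and 3.60 and 5.15 CPM in Cd4-positive cells (log2 fold change 4.89, adjusted p = 0.00146), and Cd160, which binds HVEM like BTLA, had a log2 fold change of 1.27 (adjusted p = 0.0137).

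Single cells differed in how many of the receptors they held. At 10000 UMIs, 20.4% of the 1382 cells had none of the 10 transcripts and 31.4% had at least 3. In WT, Jα18-deficient and CD1d-deficient cells, 11.3%, 19.8% and 43.2% had none, and 40.0%, 32.1% and 9.69% had at least 3. By class at 5 UMIs, 46.2% of the Cd8a-positive cells had none, against 4.57% of the Cd4-positive and 18.1% of the double-negative cells. Cells with no receptor transcript were thus commonest in the CD1d-deficient pool and in the Cd8a-positive class, and the same cells are in part counted in both. Within pools, 52.0% of the Cd8a-positive against 10.9% of the double-negative cells had none in WT, and 40.9% against 17.4% in Jα18-deficient mice. In CD1d-deficient mice the shares were 50.6% (39.3 to 61.9) and 39.3% (31.3 to 47.8), with overlapping intervals.

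**Figure D4:**
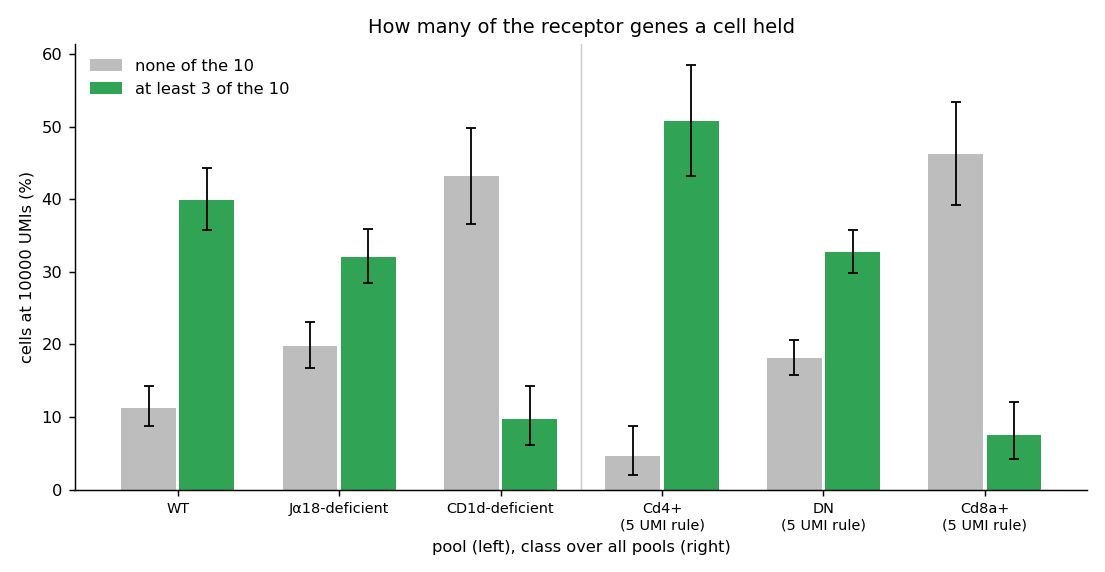
Percentage of cells, each thinned to 10000 UMIs, with none and with at least 3 of the 10 receptor transcripts, by genotype pool and by class at 5 UMIs, with Clopper-Pearson 95% intervals. Cells with none were 11.3% of WT and 43.2% of CD1d-deficient cells, and 46.2% of Cd8a-positive cells.

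Some receptors were found in the same cells. Of the cells with Cd5, 55.3% (50.1 to 60.3) also had Cd6, against 27.5% (24.8 to 30.4) of those without. The share was higher with Cd5 in each pool (51.0% against 33.9% in WT, 62.1% against 30.5% in Jα18-deficient and 36.4% against 8.76% in CD1d-deficient cells). Cd28 was found in 57.6% of the cells with Icos against 42.0% of those without, and in 60.5% of the cells with Izumo1r against 43.4%. All cells carried the same number of UMIs here, but the pools and classes differ in both genes of each pair.

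Cells with Lag3 held Cd28 and Cd6 at lower shares than cells without it. Of the 80 cells with Lag3 at 10000 UMIs, 16.2% (8.95 to 26.2) had Cd28, against 48.9% of the cells without Lag3, and 11.2% had Cd6, against 36.6%. Within double-negative cells the shares were 23.9% against 50.2% for Cd28 and 13.0% against 38.7% for Cd6. Tigit was detected in 0 of the 650 cells with Cd28, and in 3.75% of the cells with Lag3 against 0.461% of those without. All of these shares are descriptions over cells, which share pools and are not replicates. Lag3 and Cd28 also differed between the pools in opposite order, and the part of pool makeup in the shares was not tested.

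**Figure D5:**
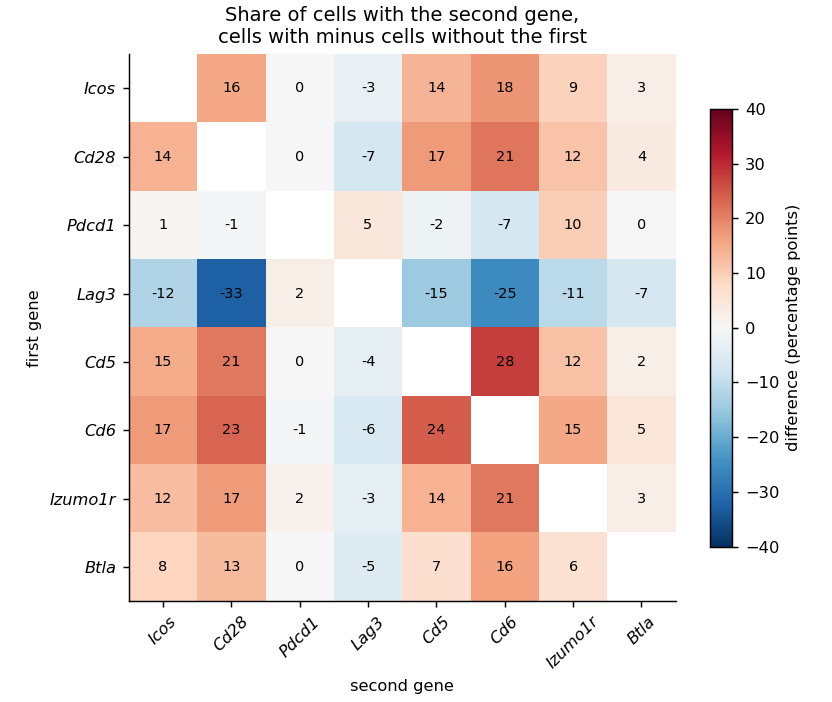
Co-detection of the 8 members with at least 20 positive cells at 10000 UMIs. Each square gives the percentage of cells with the column's gene (second gene) among cells with the row's gene (first gene), less that among cells without it, in percentage points. Cd5 with Cd6 was among the positive squares (55.3% against 27.5%), and Lag3 with Cd28 among the negative ones (16.2% against 48.9%).

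Across the 9 sums of class and pool at 1 UMI, the genes with the pattern most like a member's were ranked by Pearson's r of log2 CPM among 5259 genes, as a description of sums that share pools. The 3 highest were Rnase4 (0.95), Rpl14 (0.94) and Mmp9 (0.93) for Cd28, and Sf3a1 (0.94), Ly6g5b (0.91) and Clint1 (0.87) for Icos. For Cd5 they were Msra (0.92), Ccr2 (0.90) and Mien1 (0.89), and for Cd6 Arhgap26 (0.95), Nudc (0.93) and Arhgdib (0.92). For Izumo1r they were Rps12 (0.97), Trib2 (0.96) and Rnase4 (0.96), so that Rnase4 stood near both Cd28 and Izumo1r. The inhibitory receptors had Ccr9 (0.96), Hnrnpa0 (0.95) and Ppil3 (0.94) for Btla, Cd200r2 (0.96), Tmem37 (0.95) and Filip1l (0.95) for Lag3, and Map3k8 (0.93), Faim (0.90) and Tada1 (0.90) for Pdcd1. Among the members themselves, Cd28 and Izumo1r had r = 0.84, Cd6 and Izumo1r 0.79, and Lag3 and Izumo1r -0.92. Lag3 thus ran opposite to Izumo1r over these sums, while Cd28 and Cd6 ran with it. However, 1 of the sums, that of the CD1d-deficient Cd4-positive cells, rests on 8 cells. It had the highest Izumo1r level, at 499 CPM, and 0 UMIs of Lag3, and r without it was not computed.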

How the data were processed

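NK1.1+CD3e+ cells of mouse liver were sorted and picked singly. According to the sources, the authors used Cutadapt (1.15) for trimming and TopHat (2.0.12) for alignment to the transcriptome of mm9, then collapsed reads by UMI and counted them with HTSeq (0.10.0). The deposited matrix holds counts, whole numbers of UMIs per gene and cell, and no 2 cells had identical columns. The sequence depth ranged from 13508 to 46670 UMIs in the median cell of a pool, and no doublet caller was run. Members and lists were chosen with earlier results of these data known.

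UMIs were summed over each genotype pool, or each class and pool, and divided by the total. Intervals were exact Poisson for levels and ratios and Clopper-Pearson for shares, at 95%. Shares were read after thinning each cell to 10000 UMIs, which left out 353 shallower cells. Sums with at least 3 cells were fitted in R (4.3.3) with edgeR (4.0.16) quasi-likelihood, TMM scaling, its default expression filter and a pool term, with Benjamini-Hochberg adjustment over all genes except that Cd8a and Cd4 were not counted as calls. DESeq2 (1.42.0) and limma (3.58.1, log2 of mean counts per 10000 plus 0.1) served as alternatives, beside other scalings, filters, class limits and omissions. On simulated data for Cd8a-positive against double-negative cells over 10324 genes, edgeR recovered 3% of 2-fold and 25.5% of 4-fold changes and called 1 unchanged gene, so that the fits miss most differences of that size. Named genes were the members, any listed pathway gene called in a class comparison, and the 3 genes most like each member with at least 500 UMIs, among genes of at least 20 mean CPM. Python (3.11.15) and scipy (1.17.1) computed levels and intervals.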

Additional observations from a re-analysis of the deposited data

Results flagged for a closer look

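At the limit of 1 UMI, 4 members had class differences of opposite sign in different pools, each with a counting interval that left out 0. These differences between pools were not tested, since each pool gives a single value. Icos in Cd4-positive against double-negative cells had a log2 ratio of 0.79 among CD1d-deficient, -0.63 among Jα18-deficient and -0.19 among WT cells. Cd28 in the same contrast had 1.64 among CD1d-deficient and -0.13 among Jα18-deficient cells. The CD1d-deficient Cd4-positive class holds 8 cells. Lag3 in Cd8a-positive against double-negative cells had -0.52 among CD1d-deficient, 2.51 among Jα18-deficient and 0.85 among WT cells. Btla in Cd4-positive against double-negative cells had 0.75 among Jα18-deficient and -0.38 among WT cells.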

How the results depend on the processing

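The number of genes called depended on how cells were classed and on the tool. For Cd8a-positive against double-negative cells (0 genes) it was 2 with DESeq2, 2 with library totals only, 8 with every gene that had a UMI, 5 with a limit of 2 UMIs, 5 with classes read after thinning and 7 with the limit of 5 UMIs, the last chosen after the data had been seen, and ran from 4 to 10 with each pool left out in turn. For Cd4-positive against double-negative cells (0 genes) the same settings gave 7 with DESeq2, 8 with every gene, 8, 7 and 7 by class limit, and 0 to 13 with each pool left out. For Cd8a-positive against Cd4-positive cells (10 genes) they gave 74 with DESeq2, 37 with every gene, 2 without the pool term, 38, 36 and 68 by class limit, and 10 to 31 with each pool left out. Of the 68 genes at 5 UMIs, 46 were higher and 22 lower in Cd8a-positive cells. All 10 genes were also called by DESeq2 and at 5 UMIs.

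Among class differences larger than their SE and genotype ratios past the size rule, signs reversed for Pdcd1 in Cd8a-positive against double-negative cells at 5 UMIs (-0.11) and in Cd4-positive against double-negative cells with limma (-0.18) and at 5 UMIs (-1.24), for Cd28 in Cd4-positive against double-negative cells inside the study's depth filter (-0.030) and for Ctla4 in Jα18-deficient over WT cells thinned to 10000 UMIs (0.26). Smaller differences are not listed, among which some also turned, such as Pdcd1 in Jα18-deficient over WT cells, at -0.71 in the sums, 0.74 after thinning and 0.10 on the mean over cells. Ctla4 in Cd8a-positive against Cd4-positive cells gave no value without the WT pool, where both classes had 0 UMIs. The causes were not tested. The share of cells with at least 3 members was 19.4% at 5000 UMIs, which sees fewer molecules. No paired analysis was possible because the cell names carry no library or replicate number. Depth limits Tigit and Ctla4 in every comparison, and the CD1d-deficient Cd4-positive class, with 8 cells, could not be fitted at 5 UMIs or inside the depth filter.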
